A study of Mus musculus with 8 samples.

Results

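The genes described here are markers of intraepithelial lymphocytes and of cytotoxic cells in the mouse small intestine. They are the granule protease genes Gzma and Gzmb, the chemokine gene Ccl5, the granule and receptor genes Nkg7 and Klrd1, the T cell receptor chains Cd3d, Cd3e and Cd3g, the coreceptor gene Cd8a and the integrin gene Itgae. Every probe set annotated to one of these 10 genes was taken, out of 12394 named genes, which gave 11 of the 22690 probe sets on the array, with 2 for Cd8a and 1 for each other gene. Segments of small intestine from 6-week-old female C57/Black6 mice was measured on Affymetrix arrays after 5 days of daily intraperitoneal injection. Dexamethasone, a synthetic glucocorticoid, was given at 15 mg/kg (2 arrays). DBZ, a gamma-secretase inhibitor that blocks Notch activation, was given at 10 micromol/kg (1 array), and a further group received both agents at these doses (2 arrays). The control mice received the DMSO vehicle (2 arrays). The labels do not give the position along the gut from which each piece came. The design text speaks of 2 mice in each group, but the pair of DBZ columns held equal values for 22684 probe sets and was counted as 1 array, so the DBZ group has no spread of its own.

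Intraepithelial lymphocytes are T cells that sit between the enterocytes of the gut lining. Many carry CD8, are held in the epithelium by the integrin that contains the Itgae chain and binds E-cadherin, and store granzymes ready for release. Glucocorticoids kill or silence many kinds of lymphocyte, and Notch signalling has been tied to granzyme B expression in cultured mouse CD8 T cells.

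RefSeq promoter windows (GRCm38.p6, 250 bases before to 50 after the gene start, 300 bases in all) were found for 7 of the 10 genes, all but Ccl5, Klrd1 and Itgae. The windows of Gzma and Gzmb are shown because these genes carry the main result, and those of Cd3g and Cd3d because they are a neighbouring pair of receptor genes. They lie at chr13:113100932-113101231 (Gzma, minus strand), chr14:56262285-56262584 (Gzmb, minus strand), chr9:44980382-44980681 (Cd3g, minus strand) and chr9:44981536-44981835 (Cd3d, plus strand). Each is written 5′ to 3′ on the strand of its gene, and capitals mark matches to the motifs searched.
Gzma: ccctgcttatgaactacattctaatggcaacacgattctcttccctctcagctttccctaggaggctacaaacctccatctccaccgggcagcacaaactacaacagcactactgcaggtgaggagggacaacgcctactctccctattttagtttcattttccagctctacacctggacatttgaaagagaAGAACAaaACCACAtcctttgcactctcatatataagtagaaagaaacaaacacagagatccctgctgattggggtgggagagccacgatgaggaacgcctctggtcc
Gzmb: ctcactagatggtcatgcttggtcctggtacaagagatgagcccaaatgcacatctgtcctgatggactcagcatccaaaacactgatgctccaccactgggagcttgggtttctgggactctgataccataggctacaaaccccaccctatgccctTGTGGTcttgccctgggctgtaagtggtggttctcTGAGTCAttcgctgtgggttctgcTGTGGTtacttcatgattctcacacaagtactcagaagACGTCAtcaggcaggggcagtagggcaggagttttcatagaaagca
Cd3g: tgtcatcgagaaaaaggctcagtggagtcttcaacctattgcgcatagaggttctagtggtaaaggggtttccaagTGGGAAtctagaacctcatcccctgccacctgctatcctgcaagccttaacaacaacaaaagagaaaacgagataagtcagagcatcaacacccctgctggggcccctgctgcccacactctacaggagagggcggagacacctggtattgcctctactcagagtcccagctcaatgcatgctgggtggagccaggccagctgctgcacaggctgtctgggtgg
Cd3d: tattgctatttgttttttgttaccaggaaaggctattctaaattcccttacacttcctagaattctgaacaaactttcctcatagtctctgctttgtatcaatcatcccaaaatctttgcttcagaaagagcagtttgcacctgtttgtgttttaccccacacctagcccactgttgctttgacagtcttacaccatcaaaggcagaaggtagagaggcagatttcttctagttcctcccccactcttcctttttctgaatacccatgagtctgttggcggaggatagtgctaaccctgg
The motifs were searched on both strands as the RUNX site TGTGGT, the AP-1 site TGAGTCA, the CRE core ACGTCA, the hexamer AGAACA of the glucocorticoid response element and the RBPJ core TGGGAA. Among all 32851 promoter windows, 16.8% held the RUNX letters, 5.2% the AP-1 letters, 7.51% the CRE core, 19.0% the glucocorticoid hexamer and 25.6% the RBPJ core. The Gzmb window held RUNX matches that began 93 and 34 bases before the start, an AP-1 match 58 bases before it and a CRE core just after it. The Gzma window held the glucocorticoid hexamer 58 bases before the start and a RUNX match on the other strand 50 bases before it. The Cd3g window held an RBPJ core 174 bases before the start, and the Cd3d window held none of the motifs. The starts of Cd3g and Cd3d are 1355 bases apart on opposite strands. These matches describe the letters of the windows and say nothing of binding.

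Values are MAS5 signals, a brightness per probe set, brought to a common trimmed mean of 250.1. The vehicle arrays had been deposited at a trimmed mean of 500.2 and the treated arrays at 250.1. Rank correlations over all probe sets were 0.925 to 0.94 between vehicle and treated arrays, 0.94 to 0.959 between treated groups and 0.95 to 0.959 within groups. Epithelial markers were bright on every array, with a summed signal over 12 genes of 54190 to 59090 (dexamethasone), 62290 (DBZ), 55670 to 72290 (dexamethasone plus DBZ) and 53200 to 53290 (vehicle). Gzma, Gzmb and Ccl5 had mean signals of 527, 124 and 149 over the 7 arrays, while Cd8b1, the partner chain of Cd8a chain, lay at or under the pseudocount of 12.33 on all 7 arrays. Of the 11 probe sets, 6 passed the filter on mean signal (38.84 or more). Those 6 were 1 each for Gzma, Gzmb, Ccl5, Klrd1, Cd8a (the brighter of its pair by array mean) and Itgae. Klrd1, Cd8a and Itgae passed only through their vehicle arrays, since the mean of their treated arrays lay under 38.84. The other 5 are reported from a fit without the filter. In whole tissue, fewer cells of a type and less RNA per cell cannot be told apart.

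All 11 probe sets were lower than vehicle in each treated group, but with quantile normalisation the brighter Cd8a probe set stood at 0.038 with DBZ. Without the second vehicle array Cd3d stood at 0.024 with DBZ and the dimmer Cd8a probe set at 0.33 with DBZ and 0.44 with both agents, and without the first dexamethasone plus DBZ array the last was 0.023. Gzma, Gzmb and Ccl5 fell past the threshold in all 3 groups in the filtered fit. In the limma fit of all 22626 probe sets without the filter, adjusted p was under 0.05 for 3 of the 11 with dexamethasone, 2 with DBZ and 3 with both agents. Over all those probe sets the shares called lower were 1.98%, 1.17% and 1.07%. The median log2 change of the 11 was -1.24 with dexamethasone, -0.45 with DBZ and -1.23 with both, and the medians of all probe sets were -0.01, -0.06 and -0.07. With the filter, calls among the 6 tested were 3, 3 and 4, where 4.82%, 4.6% and 3.06% of all 13638 tested probe sets were called lower. Since Klrd1, Cd8a and Itgae passed the filter only through their vehicle arrays, these shares are no fair background for them. The call beyond Gzma, Gzmb and Ccl5 was Itgae with both agents, and it was lost without the filter (limma adjusted p = 0.0912). The treated arrays all lay below both vehicle arrays for 8 of the 11, against 13.8% of all probe sets, and the exceptions were Cd3d and both Cd8a probe sets. For Cd3e the margin was slight, with 44.31 on the DBZ array and 44.36 on the lower vehicle array. The 3 comparisons share their vehicle arrays.

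**Figure D1:**
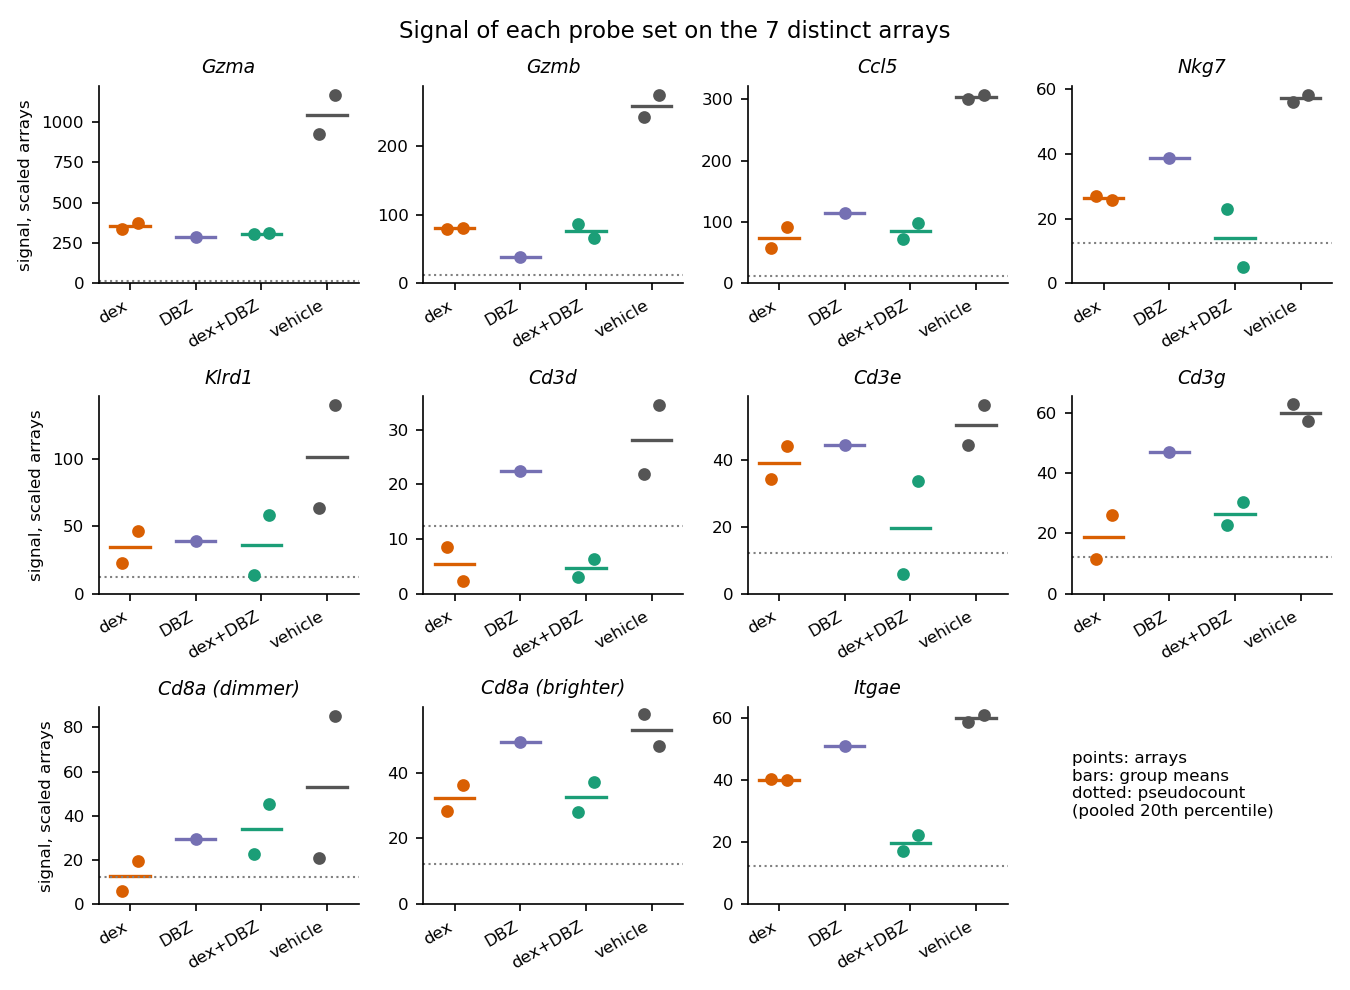
Scaled MAS5 signal (linear axes from 0) of each probe set on each of the 7 arrays, in the groups dexamethasone (dex), DBZ, dexamethasone plus DBZ and vehicle; points are arrays, bars group means and the dotted line the pseudocount. The vehicle points of Gzma, Gzmb and Ccl5 stand apart above all treated points, while for Cd3d and both Cd8a probe sets the DBZ point lies in the vehicle range.

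Gzma encodes granzyme A, a protease of cytotoxic granules that cleaves after basic residues. Its signal was 336 and 374 with dexamethasone, 285 with DBZ, 302 and 309 with both agents, and 921 and 1163 with vehicle. Every treated array lay below both vehicle arrays. The log2 change was -1.51 ± 0.18 with dexamethasone (SE; limma adjusted p = 0.00131), -1.82 ± 0.22 with DBZ (0.00325) and -1.72 ± 0.18 with both (0.00135), or 2.85-, 3.52- and 3.29-fold lower.

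Gzmb encodes granzyme B, which cleaves after aspartate and activates caspases in target cells. Its signal was 79.9 and 81 with dexamethasone, 37.7 with DBZ, 87.1 and 66.6 with both agents, and 242 and 274 with vehicle. The DBZ array was the lowest of all, and no treated array reached the vehicle range. The log2 change was -1.54 ± 0.23 with dexamethasone (limma adjusted p = 0.00369), -2.43 ± 0.28 with DBZ (0.0031) and -1.61 ± 0.23 with both (0.00504). Without the second dexamethasone plus DBZ array, the last value was -1.44 and its adjusted p 0.0523.

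Ccl5 encodes a chemokine made by effector and memory T cells. Its signal was 58.3 and 91.1 with dexamethasone, 114 with DBZ, 72.3 and 97.6 with both agents, and 300.2 and 307 with vehicle. Here the DBZ array was the highest of the treated arrays, unlike in Gzmb. The log2 change was -1.89 ± 0.25 with dexamethasone (limma adjusted p = 0.0024), -1.32 ± 0.31 with DBZ (0.032) and -1.71 ± 0.25 with both (0.00563). The DBZ call was lost without the filter (adjusted p = 0.072) and without either vehicle array (0.0824 and 0.0805), and the call with both agents was lost without the first array of that group (0.0584).

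Nkg7 encodes a granule membrane protein needed for granule release, and Klrd1 encodes CD94, which pairs with NKG2 receptors. Nkg7 had 27 and 25.8 with dexamethasone, 38.6 with DBZ, 22.9 and 5.14 with both agents, and 56 and 58.2 with vehicle. No treated array of either gene reached its vehicle range, but neither gene passed the threshold in any comparison with vehicle. The log2 change of Nkg7 was -0.84 ± 0.40, -0.45 ± 0.49 and -1.48 ± 0.40 with dexamethasone, DBZ and both (limma adjusted p = 0.30, 0.68 and 0.0954). Klrd1 had 22.9 and 46.3 with dexamethasone, 38.8 with DBZ, 14.2 and 58.1 with both agents, and 63.2 and 140 with vehicle. Its arrays differed widely within groups, and its log2 change was -1.24 ± 0.51, -1.07 ± 0.62 and -1.31 ± 0.51 (limma adjusted p = 0.151, 0.309 and 0.151).

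Cd3d, Cd3e and Cd3g encode the CD3 chains that carry the signal of the T cell receptor into the cell. Cd3d had 8.58 and 2.27 with dexamethasone, 22.5 with DBZ, 3.17 and 6.39 with both agents, and 21.9 and 34.4 with vehicle. Its 4 arrays with dexamethasone lay under the pseudocount, and the DBZ array lay inside the vehicle range. Cd3g had 11.6 and 26.2 with dexamethasone, 47.1 with DBZ, 22.7 and 30.3 with both agents, and 62.8 and 57.1 with vehicle. The DBZ array was again the treated array nearest to vehicle. With dexamethasone the log2 change was -1.20 ± 0.35 for Cd3d and -1.25 ± 0.36 for Cd3g (limma adjusted p = 0.0939 and 0.0936). With DBZ it was -0.20 ± 0.43 and -0.28 ± 0.44 (0.854 and 0.791), and with both agents -1.23 ± 0.35 and -0.90 ± 0.36 (0.107 and 0.238). Cd3e had 34.2 and 44.2 with dexamethasone, 44.3 with DBZ, 5.89 and 33.6 with both agents, and 44.4 and 56.4 with vehicle. Its log2 change ran from -1.11 ± 0.46 with both agents to -0.14 ± 0.56 with DBZ, and no CD3 chain passed the threshold.

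Cd8a encodes the CD8 alpha chain, and Itgae the alpha E integrin chain. The brighter Cd8a probe set had 28.2 and 36.3 with dexamethasone, 49.1 with DBZ, 28 and 37.1 with both agents, and 57.6 and 48 with vehicle. The DBZ array lay between the vehicle arrays. Its log2 change was -0.55 ± 0.31 with dexamethasone, -0.08 ± 0.38 with DBZ and -0.54 ± 0.31 with both (limma adjusted p = 0.299, 0.919 and 0.321). The dimmer probe set had 5.87 and 19.4 with dexamethasone, 29.5 with DBZ, 22.9 and 45.6 with both agents, and 20.9 and 85.3 with vehicle. Its vehicle arrays differed so much that the range between them held the DBZ array and both dexamethasone plus DBZ arrays. Its log2 change was -1.24 ± 0.55, -0.45 ± 0.68 and -0.33 ± 0.55 with dexamethasone, DBZ and both, none past the threshold.

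Itgae had 40.4 and 40 with dexamethasone, 51.1 with DBZ, 17.1 and 22.4 with both agents, and 59 and 61.3 with vehicle. The order was the same in every array: both agents lowest, then dexamethasone, then DBZ, then vehicle. In the filtered fit Itgae was called lower with both agents (log2 change -1.18 ± 0.30, limma adjusted p = 0.0448). Its change was -0.46 ± 0.30 with dexamethasone and -0.19 ± 0.37 with DBZ (0.369 and 0.786). Its mean signal of 41.6 passed the filter only with the vehicle arrays counted in. The call was lost without the filter (adjusted p = 0.0912), after quantile normalisation (0.0549) and when any 1 dexamethasone, dexamethasone plus DBZ or first vehicle array was left out (0.0568 to 0.194). Itgb7, which encodes the partner chain of Itgae, had 19.7 and 5.79 with dexamethasone, 41.3 with DBZ, 22.6 and 3.55 with both agents, and 51.7 and 49.1 with vehicle. Cdh1, which encodes E-cadherin, had 2087 and 2171 with dexamethasone, 2388 with DBZ, 2468 and 2044 with both agents, and 1881 and 2598 with vehicle. The Cdh1 groups overlapped, while every treated array lay below both vehicle arrays for Itgb7, as was so for 13.8% of all probe sets. Itgb7 was chosen after its values were seen, and it lay at or under the pseudocount on 2 arrays.

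**Figure D2:**
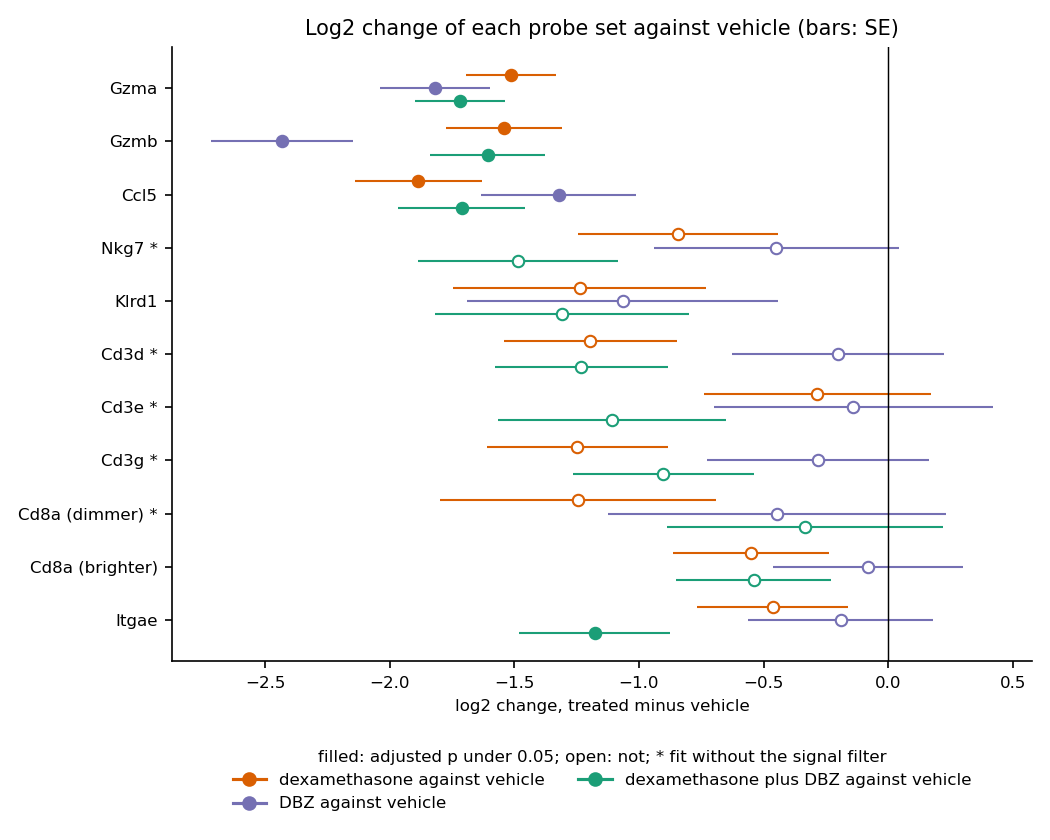
Log2 change against vehicle of each probe set in the dexamethasone, DBZ and dexamethasone plus DBZ groups (bars, SE). Filled points have an adjusted p under 0.05, and these are Gzma, Gzmb and Ccl5 in all 3 groups and Itgae with both agents.

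The treated groups were then compared with each other. This asks whether adding DBZ to dexamethasone, or dexamethasone to DBZ, moved these genes, and whether the agents alone differed. No probe set of the 11 passed the threshold in any of the 3 comparisons, with or without the filter. In the filtered limma fit 0.0293% of all probe sets were called between both agents and dexamethasone, 0.33% between both agents and DBZ and 0.337% between DBZ and dexamethasone. Without the filter these shares were 0%, 0.0221% and 0.00442%. Without the filter, unadjusted limma p was under 0.05 for 1, 3 and 2 of the 11. The share of all probe sets under that unadjusted threshold was not counted, and the shares above do not apply to it.

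Gzmb was 0.82 ± 0.28 higher on the log2 scale with both agents than with DBZ (95% interval 0.19 to 1.46, limma adjusted p = 0.282), and 0.89 lower with DBZ than with dexamethasone (change -0.89 ± 0.28, adjusted p = 0.196). Both differences rest on the single DBZ array. Between both agents and dexamethasone Gzmb differed by -0.07 ± 0.23 (95% interval -0.59 to 0.45, adjusted p = 0.952). Gzma differed by -0.21 ± 0.18 in that comparison (-0.61 to 0.20) and Ccl5 by 0.17 ± 0.25 (-0.39 to 0.74). Itgae was lower with both agents than with dexamethasone, by -0.71 ± 0.30 (adjusted p = 0.506), and than with DBZ, by -0.99 ± 0.37 (0.321). Cd3d differed by 0.99 ± 0.43 and Cd3g by 0.97 ± 0.44 between DBZ and dexamethasone (adjusted p = 0.425 and 0.452), the opposite direction to Gzmb.

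**Figure D3:**
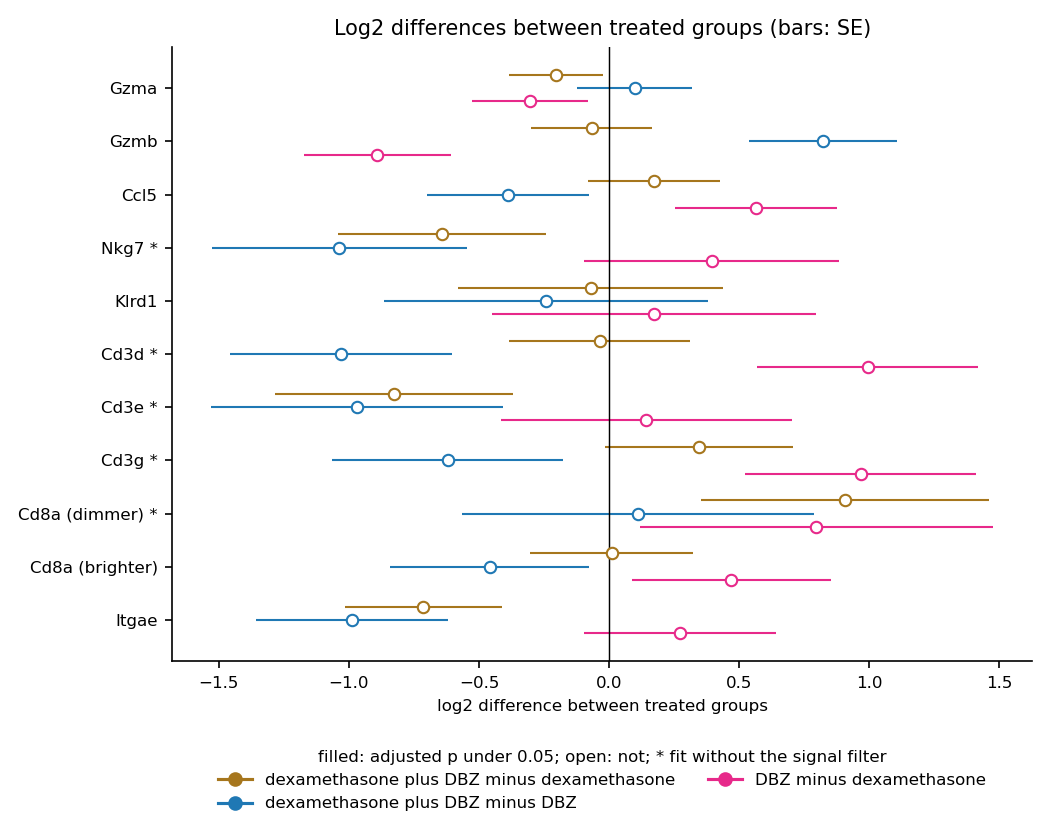
Log2 difference of each probe set between treated groups (bars, SE). All points are open, since no adjusted p was under 0.05, and the DBZ minus dexamethasone points of Gzmb and Cd3d lie on opposite sides of 0.

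The interaction term asks whether the change with both agents differed from the sum of the changes with each agent alone. It was positive and past the threshold for Gzma (1.61 ± 0.29, limma adjusted p = 0.0184) and Gzmb (2.37 ± 0.37, 0.0112), where 2.07% of all tested probe sets were called in that direction (0.561% without the filter). For Ccl5 it was 1.50 ± 0.40 (adjusted p = 0.0709). The term uses the lone DBZ array and the vehicle arrays. Where the treated groups lie at the same level, it equals vehicle minus that level, so it repeats the fall against vehicle. No difference between treated groups was called for these genes. The call was lost for both Gzma (0.0835) and Gzmb (0.0569) without the first dexamethasone plus DBZ array. For Gzma it was also lost without the second (0.0767), without the first dexamethasone array (0.0607) and without the intensity trend (0.056). Markers of position along the gut moved with this term. Of 8 tested proximal genes 7 were called higher (median 2.48, Reg1 6.29, Gata6 2.40), in the direction of the granzymes. Of 8 tested ileal genes 6 were called lower (median -3.64), where 1.93% of all tested probe sets were. The part of these shifts in the interaction was not tested.

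Other genes of the same cells were read from lists. Of 21 measured genes of T cell receptor signalling and the T cell surface, 5 passed the filter and 0 were called in each comparison with vehicle by limma, with 0, 1 and 1 at an unadjusted p under 0.05 with dexamethasone, DBZ and both. Without the filter Cd5, a surface receptor of T cells, was called with both agents (-1.43 ± 0.31, adjusted p = 0.0492), although it lay at or under the pseudocount on 5 arrays. Of 26 measured granule and natural killer receptor genes, 7 passed and 0 were called, with 1 in each comparison at an unadjusted p under 0.05. For both lists the share of all probe sets at that unadjusted p was not counted. Prf1, which encodes the pore-forming perforin, had 22.3 and 17.9 with dexamethasone, 39.5 with DBZ, 28.9 and 31.2 with both agents, and 38.9 and 21.7 with vehicle. Its treated arrays overlapped the vehicle arrays, unlike those of Gzma and Gzmb. In the same list every treated array lay below both vehicle arrays for Cd160, Ctsw and Gzmm, but not for the granzyme genes Gzmk and Gzmc. Over all probe sets 13.8% lay so, and the whole list was not counted in this way. The genes Gzmm, Gzmk and Gzmc were chosen after their values were seen. Gzmm, Gzmk and Gzmc lay at or under the pseudocount on 3, 4 and 6 arrays. Among 16 homing and IL-15 genes, Il15, a cytokine that keeps intraepithelial lymphocytes alive, fell with dexamethasone (log2 change -0.91 ± 0.24, limma adjusted p = 0.0377), a call lost without the filter (0.0679). Its signal was 329 and 286 with dexamethasone, 423 with DBZ, 579 and 381 with both agents, and 493 and 699 with vehicle.

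The summed signal of markers shared by all leukocytes was below both vehicle arrays on the arrays given dexamethasone and above them on the DBZ array. Over 14 genes it was 901.5 to 1058 with dexamethasone, 1745 with DBZ, 884.5 to 1176 with both agents and 1374 to 1539 with vehicle. Of the 9 tested, Cd52 fell with dexamethasone (-0.98 ± 0.22, limma adjusted p = 0.0221) and Laptm5 with both agents (-0.98 ± 0.26, 0.0488, but 0.0991 without the filter), and 0 were called with DBZ. The unadjusted limma p was under 0.05 for 4 with dexamethasone, 1 with DBZ and 3 with both, with no share of all probe sets counted at that threshold. Members differed, and Lsp1 had 137 and 86.1 with dexamethasone, 111 with DBZ, 68 and 78.6 with both agents, and 91.4 and 57 with vehicle. The median log2 change was -0.34, 0.25 and -0.35 with dexamethasone, DBZ and both. The summed T cell list was 519.6 to 670.3 with dexamethasone, 724.5 with DBZ, 525.2 to 611.6 with both agents and 724 to 726.1 with vehicle. A sum is carried by its brightest genes. Gene by gene, 13 of the 21 were lower with dexamethasone, 13 with DBZ and 16 with both, with medians of -0.12, -0.26 and -0.21 in the fit without the filter.

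**Figure D4:**
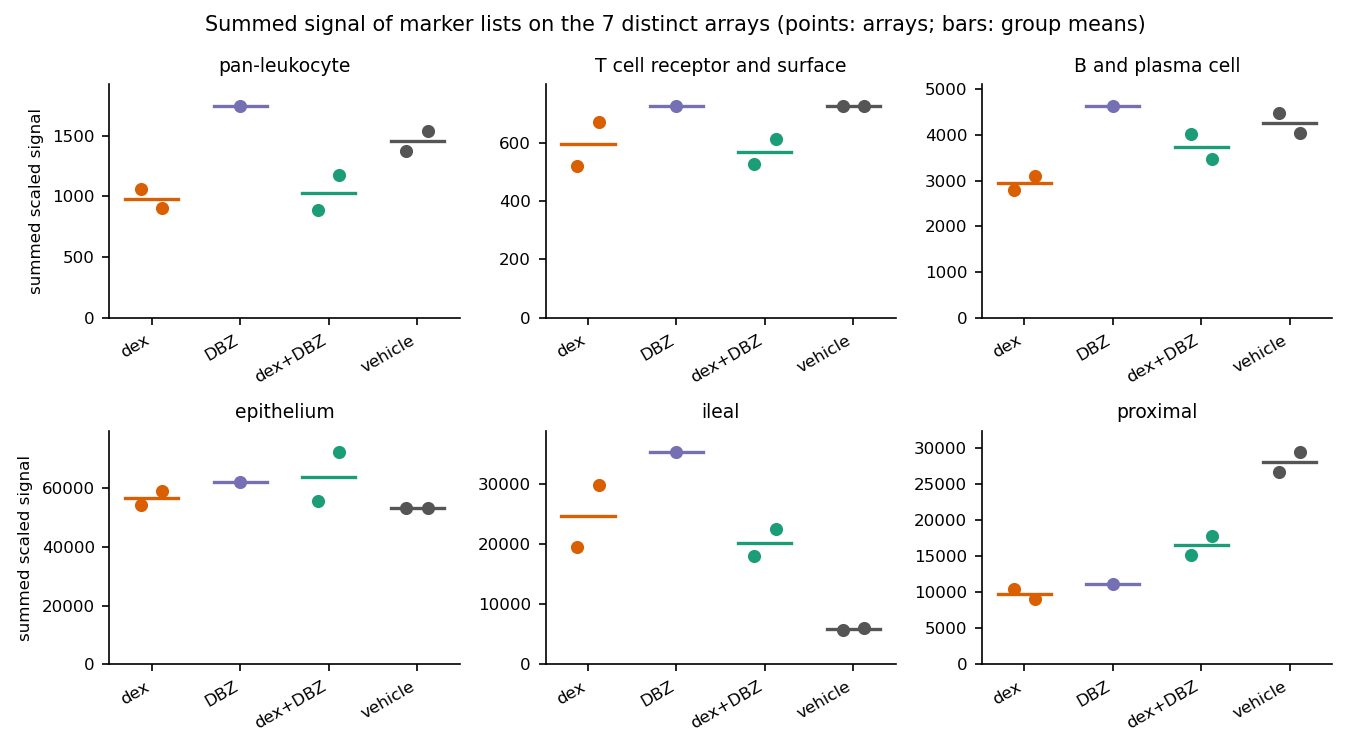
Summed scaled signal of marker lists on each array, by group (points are arrays, bars group means). The DBZ array lies above vehicle for leukocyte markers and between the vehicle arrays for the T cell sum, and every treated array lies above vehicle for ileal and below it for proximal markers.

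Markers of position along the gut also moved with the comparisons against vehicle. The summed signal of 9 ileal genes was 19600 to 29830 with dexamethasone, 35300 with DBZ, 18000 to 22550 with both agents and 5713 to 6067 with vehicle. The sum of 9 proximal genes was 9037 to 10420, 11110, 15160 to 17850 and 26630 to 29430 in the same groups. Fabp6, an ileal bile acid binding protein, had 3326 and 10018 with dexamethasone, 11871 with DBZ, 1190 and 1116 with both agents, and 0.64 and 1.22 with vehicle. Reg1, a proximal marker, had 101 and 54.7 with dexamethasone, 95.5 with DBZ, 96.2 and 72.5 with both agents, and 7196 and 8094 with vehicle. Slc46a1, a folate transporter of the proximal gut, had 277 and 246 with dexamethasone, 522 with DBZ, 837 and 409 with both agents, and 2200 and 3094 with vehicle. Summed smooth muscle genes were also higher, at 19870 to 27830, 23580, 18420 to 19980 and 8633 to 12170. The 3′ to 5′ ratio of the Gapdh control was 1.8 on the DBZ array and 0.905 to 1.22 on the others. That of the beta-actin control was 2.17 on the DBZ array, 1.51 and 1.79 with vehicle and 1.22 to 1.4 on the arrays given dexamethasone. The part of these shifts in the changes against vehicle was not tested, and intestinal position and treatment cannot be told apart.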

How the data were processed

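Total RNA of 4 groups was hybridised to Affymetrix arrays, and the authors deposited MAS5 signal intensity per probe set (per the submitters' processing notes, which give no version). The unit is a linear intensity. Detection calls were not used here. All 8 deposited columns were used, and 0 were left unused. The 2 DBZ columns differed in 6 probe sets, where 1 copy was 0, and were merged. The planned 2 DBZ arrays were therefore 1, assumed to vary like the other groups.

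Arrays were brought to one trimmed mean, 250.1 (2% cut at each end). A pseudocount of 12.33, the 20th percentile of all signals, was added before log2, so fold changes of dim genes are understated. Probe sets with a mean under 38.84 (pooled 40th percentile) and 64 controls were left out, which left 13638. Group means were fitted in limma 3.58.1 (R 4.3.3) with eBayes and its trend option. The p-values are 2-sided and were adjusted by Benjamini-Hochberg over all tested probe sets, with a threshold of 0.05. Residual degrees of freedom were 3 and prior degrees of freedom 6.83. An exact permutation test of 2 against 2 arrays cannot go below 0.33. The script was tested on simulated data.

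Probe sets were named from the platform annotation, where 20393 had 1 symbol, 691 several and 1606 none. All 10 genes were named, with up to 4 list genes of the smallest p in a comparison, the genes nearest in profile and the position markers Fabp6, Reg1 and Slc46a1. Cd8b1, Itgb7, Cdh1, Prf1, Gzmm, Gzmk, Gzmc, Cd5 and Lsp1 were chosen after their values were seen. The genes and lists were chosen with earlier results of these data known. The p-values measure the spread between these arrays, and the number of arrays limits the precision. Alternatives covered scaling, pseudocount, filter, trend, replicate block and left-out arrays.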

Additional observations from a re-analysis of the deposited data

Results flagged for a closer look

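For Gzma and Gzmb the change with both agents differed from the sum of the changes with dexamethasone and with DBZ, by the test of that difference. Where the treated groups lie at the same level, this term repeats the fall against vehicle, so it is not a separate result. No difference between treated groups was called for either gene. The difference was 1.61 on the log2 scale for Gzma and 2.37 for Gzmb. It was positive for both genes under each of the 14 alternatives in which it could be computed. The call was lost in 4 of these for Gzma and in 1 for Gzmb. In the same term 7 of 8 tested proximal marker genes were called higher (Reg1 6.29, Ctse 2.55, Gata6 2.40) and 6 of 8 ileal genes lower, and their part in the result was not tested.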

How the results depend on the processing

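Of 16 alternatives, 2 of them chosen after seeing the data, 15, 14 and 15 gave a comparison of dexamethasone, DBZ and both with vehicle. In these the falls of Gzma against vehicle kept their direction and call in all 3 groups, as did those of Gzmb with dexamethasone and DBZ and of Ccl5 with dexamethasone. Taken as deposited, without common scaling, 10, 7 and 9 of the probe sets described here were called lower with dexamethasone, DBZ and both, but the median of all genes then shifted by -0.95, -0.94 and -0.95, and 10209 of 10404, 9389 of 9515 and 10928 of 11055 calls were lower, against 657 of 1642, 627 of 1137 and 417 of 1015 after scaling. Leaving out 1 array at a time gave 3, 2 to 3 and 2 to 3 calls against vehicle and 0 to 3 for the interaction, which had 1 call without the intensity trend. Over all probe sets these ranges were 572 to 1340, 701 to 989, 160 to 921 and 91 to 562, and without the filter 1082, 538, 623 and 233 were called. Quantile normalisation turned the brighter Cd8a probe set's change with DBZ to 0.038 and the Gzmb difference between both agents and dexamethasone to 0.055. With 1 array left out, Cd3d with DBZ ranged from -0.43 to 0.024, the dimmer Cd8a probe set from -1.23 to 0.33 with DBZ and from -1.12 to 0.44 with both, and the differences between both agents and dexamethasone from -0.23 to 0.10 for Gzmb and from -0.10 to 0.45 for Ccl5; the cause was not tested. Comparisons between treated groups had 0 calls among these genes also without the vehicle arrays. Same-numbered arrays deviated with correlations of 0.11, 0.05 and -0.12, so no pairing by number was seen, although 2 arrays per group cannot exclude it. With the replicate block, 4, 3 and 4 of these probe sets were called against vehicle and 2 for the interaction, with Klrd1 at adjusted p = 0.0414 with dexamethasone and 0.0464 with both, and Itgae at 0.0635. Dim probe sets had no value under the 60th percentile filter.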

Other observations

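The 5 genes whose profile over the 7 arrays was nearest to Gzmb were Chtf8, Cpox, Chpt1, Ephx1 and Gstm4, with root mean square log2 differences of 0.24 to 0.25 among 12555 candidates. Gzma came close at 0.26, while the other genes described here lay at 0.52 to 0.89. Nearest to Cd3g were Dab1 (0.16), Akr1c14 (0.18), Mtarc2 (0.19), Gimap4 (0.20) and Inpp5d (0.21), and Gzmb lay at 0.74 from it. The ranking is a description of these arrays, with no test.

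Other immune gene lists gave few calls. With dexamethasone, 1 of 5 tested B and plasma cell genes was called, and 5 were lower (median log2 change -0.67). Of 12 tested macrophage and myeloid genes 1 was called, and 3 were lower (median 0.60). Of 5 tested T and NK cell transcription factors 1 was called, and 1 was lower (median 0.04). Jchain, which encodes the joining chain of secreted antibodies, fell with dexamethasone (log2 change -1.18 ± 0.26, limma adjusted p = 0.0169). Mrc1, a mannose receptor of macrophages, rose with dexamethasone (1.09 ± 0.22, 0.0139) and with both agents (0.86 ± 0.22, 0.0477, but 0.0899 without the filter). Zeb2, a transcription factor of effector lymphocytes and other cells, rose with dexamethasone (1.02 ± 0.26, 0.0323, but 0.0763 without the filter). Of 11 glucocorticoid response genes, 4 fell and 2 rose with dexamethasone, 4 rose with DBZ, and 1 fell and 2 rose with both agents. Without the filter 3 fell and 1 rose with dexamethasone, 2 rose with DBZ, and 1 fell and 1 rose with both. Of all 13638 tested probe sets, 1642, 1137 and 1015 were called in either direction with dexamethasone, DBZ and both. Of these calls 657, 627 and 417 were lower. Among the 4 glucocorticoid response genes that fell with dexamethasone were Pdk4 (-2.32 ± 0.25, limma adjusted p = 0.000841), Fkbp5 (-1.78 ± 0.34, 0.00982) and Zbtb16 (-1.57 ± 0.33, 0.0148). Klf9, a transcription factor, rose with dexamethasone (1.07 ± 0.24, 0.0209) and with DBZ (1.72 ± 0.30, 0.011). Mt2, a metallothionein, rose with DBZ (1.56 ± 0.29, 0.0134) and with both (1.74 ± 0.23, 0.00358). Fkbp5, a gene that glucocorticoids induce in many tissues, had 450 and 224 with dexamethasone, 1072 with DBZ, 346 and 197 with both agents, and 953 and 1317 with vehicle, so it was lower in every array given dexamethasone.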
